A study of Mus musculus with 18 samples.

Results

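The 10 genes described here are the NF-kB subunits Nfkb1, Nfkb2, Rel, Rela and Relb and the inhibitors Nfkbia, Nfkbib, Nfkbie, Nfkbiz and Tnfaip3. They were chosen by gene symbol and make up 10 of the 22708 genes of the deposited table. RNA was sequenced in bulk from eosinophils sorted from the mouse small intestine as CD11b+MHC-II-SiglecF+SSChi cells. Wild-type mice (WT), mice lacking the aryl hydrocarbon receptor AHR (Ahr-KO) and mice lacking the AHR repressor (Ahrr-KO) gave 6 samples each. Every genotype held 3 males (M1 to M3) and 3 females (F1 to F3), all labelled C57/BL6, and no age was given per sample. The knockouts were labelled for the whole mouse, so cells other than eosinophils could lack the gene too. According to the study's methods, WT and Ahr-KO mice were neither littermates nor cohoused.

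NF-kB factors are dimers of Rel-homology proteins that bind kappaB sites in the promoters and enhancers of inflammatory and survival genes. In resting cells IkB proteins hold the dimers in the cytoplasm, and signals from toll-like, interleukin and TNF receptors release them by way of the IkB kinases. Several inhibitors are themselves induced by NF-kB, which closes a negative feedback loop in leukocytes and in the gut mucosa.

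The genes named in the labels were examined first. On the log2 scale of the deposited table, whose lowest value stands for a count of 0, Ahr lay between 13.40 and 14.40 in the 6 WT samples (median 13.76). It lay between 14.15 and 14.67 (median 14.55) in the 6 samples labelled Ahr-KO, and between 13.03 and 14.42 (median 13.51) in the 6 labelled Ahrr-KO. Ahr was therefore not low in the samples labelled Ahr-KO, where 4 of the 6 lay above every WT sample, and the difference from WT was 0.61 (limma adjusted p = 0.0557). Against the samples labelled Ahr-KO, Ahr was lower in those labelled Ahrr-KO (-0.82, limma adjusted p = 0.0296). Ahrr, a known target of AHR, lay between 9.79 and 10.39 in WT (median 10.12), between the lowest value of the table and 5.79 (median 5.25) in the samples labelled Ahr-KO, and between 9.95 and 10.93 (median 10.37) in those labelled Ahrr-KO. All 6 samples labelled Ahr-KO lay below every other sample for Ahrr, which fell by 4.83 against WT (limma adjusted p = 4.95e-12). In the samples labelled Ahrr-KO, Ahrr was not lower than in WT (difference 0.28, limma adjusted p = 0.683), and the 2 groups overlapped. Reads were summed over all exons of Ahr and Ahrr and the extent of either deletion was not given, so the values of each gene in its own knockout do not test that knockout. The loss of Ahrr runs the labelled way for Ahr-KO, since the authors reported by qPCR that Ahrr was missing from intestinal eosinophils of mice with an eosinophil-specific Ahr deletion. The granule gene Prg2 also set Ahr-KO apart, with a median of 627 normalized counts against 66.0 in WT and 89.8 in Ahrr-KO, without overlap. No such target was examined for Ahrr-KO, so directions that involve those samples rest on their labels. Ddx3y, on the Y chromosome, lay between 9.61 and 11.20 in the 9 males and at 5.30 or below in the 9 females, so the labelled sex held in all 18 samples.

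Eosinophil transcripts were abundant in every sample. The summed level of the eosinophil marker list, in normalized counts (counts divided by the size factor of the sample), ran from 22750.9 in Ahrr-KO M3 to 71894.9 in Ahr-KO F2. Alox15 was its most abundant gene (mean 18965.7), Siglecf ran from 836.8 to 3113, and the granule genes Prg3, Ear1, Ear2 and Ear6 had means below 10. In Ahr-KO the eosinophil list separated the sexes, with 63772.3 to 71894.9 in females and 55822.0 to 58906.9 in males. In WT (38420.0 to 57184.5 in females, 44798.8 to 55425.8 in males) and in Ahrr-KO (32516.7 to 58614.7 and 22750.9 to 50750.4) the sexes overlapped. In bulk RNA, fewer cells of a type and less RNA per cell cannot be told apart.

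Markers of other cells were also present, and none of the 10 lists had a gene at 0 in all samples. The neutrophil list ran from 23726.4 to 113283.1 normalized counts, nearly all of it Retnlg (98.2% of the list), whereas Ly6g, Elane and Mpo had means below 10. All 6 Ahr-KO samples (54966.1 to 113283.1) lay above the other 12 for this list (48548.5 at most). The epithelium list, led by Lyz1 (mean 6944.6), reached 35612.6 in Ahrr-KO F3, 57419.5 in Ahrr-KO M1 and 51408.4 in Ahrr-KO M3, and ran from 7958.5 to 25008.6 in the other 15 samples. The B and plasma cell list, led by Jchain, ran from 96.1 to 6044.9 and was highest in Ahrr-KO M1, F2, M3 and F3. The fibroblast and endothelium list (Pecam1 92.2%) was lower in all 6 Ahr-KO samples (1884.5 to 2356.5) than in the others (2472.4 to 3884.0), and the pancreatic acinar list (led by Ctrb1) from 6.2 to 3561.3, highest in WT M3. The macrophage list (C1qb) ran from 63.2 to 1008.4, and 5 of 6 Ahrr-KO samples (714.7 to 1008.4) lay above every WT sample (417.9 at most). The dendritic list (Zbtb46) ran from 24.9 to 136.3, the T and innate lymphocyte list (Cd4) from 7.0 to 154.9 and the mast cell list (Kit) from 58.8 to 538.0. Whether these markers take part in the differences below was not tested. WT F3 and Ahr-KO F3 also stood apart, with a count for 20244 and 19694 genes, against 15146 to 17236 in the other 16 samples. Total counts ran from 3842977 to 8149200 in WT (median 6022409), from 6581818 to 10284124 in Ahr-KO (median 9647589) and from 8788867 to 12046933 in Ahrr-KO (median 10371556). Results are given with all samples, and where these 5 libraries change them, without them.

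Promoters of 7 of the 10 members were in the reference (GRCm38.p6, RefSeq starts, 250 bases before and 50 after the start), and none for Nfkb1, Relb and Nfkbiz. The following 4 are shown because they belong to 2 subunits and 2 inhibitors that were lower in males, and because they hold a kappaB match. Capitals mark matches to the kappaB consensus or to the AHR core GCGTG on either strand. The promoter of Nfkbia lies at chr12:55492598-55492897 (minus strand), that of Nfkbie at chr17:45555450-45555749 (plus strand), that of Rel at chr11:23770920-23771219 (minus strand) and the first of 3 promoters of Nfkb2 at chr19:46304487-46304786 (plus strand).
Nfkbia: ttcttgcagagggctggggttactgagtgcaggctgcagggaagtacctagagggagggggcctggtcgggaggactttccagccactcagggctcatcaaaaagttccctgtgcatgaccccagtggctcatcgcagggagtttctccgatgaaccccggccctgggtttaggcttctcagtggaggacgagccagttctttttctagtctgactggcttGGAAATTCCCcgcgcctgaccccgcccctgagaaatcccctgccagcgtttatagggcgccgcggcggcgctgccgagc
Nfkbie: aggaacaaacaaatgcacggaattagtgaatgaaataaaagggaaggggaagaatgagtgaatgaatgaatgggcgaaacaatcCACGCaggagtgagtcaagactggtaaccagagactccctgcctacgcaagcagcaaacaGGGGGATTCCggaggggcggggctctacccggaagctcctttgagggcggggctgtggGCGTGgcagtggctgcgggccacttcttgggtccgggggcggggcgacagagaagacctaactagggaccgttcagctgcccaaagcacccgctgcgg
Rel: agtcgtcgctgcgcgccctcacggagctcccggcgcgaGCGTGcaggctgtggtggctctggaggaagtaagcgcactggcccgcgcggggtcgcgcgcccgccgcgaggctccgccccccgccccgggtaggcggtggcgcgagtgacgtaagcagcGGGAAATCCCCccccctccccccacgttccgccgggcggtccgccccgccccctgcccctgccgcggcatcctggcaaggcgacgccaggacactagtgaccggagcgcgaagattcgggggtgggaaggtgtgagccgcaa
Nfkb2: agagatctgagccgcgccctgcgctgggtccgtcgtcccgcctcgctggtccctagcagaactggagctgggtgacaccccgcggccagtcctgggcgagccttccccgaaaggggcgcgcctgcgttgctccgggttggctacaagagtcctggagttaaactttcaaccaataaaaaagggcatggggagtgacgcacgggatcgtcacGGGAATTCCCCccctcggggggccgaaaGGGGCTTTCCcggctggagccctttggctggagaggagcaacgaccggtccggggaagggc
A kappaB match was found in 7 of the 10 promoters read, from 5 of 7 members (Nfkb2, Rel, Nfkbia, Nfkbie and Tnfaip3), and in 4.51% of all 32851 promoters. The AHR core was found in 6 of the 10 promoters, from 4 members (Nfkb2, Rel, Nfkbie and Tnfaip3), and in 32.4% of all promoters. A match is a sequence and not a bound site, and no result below rests on it.

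Levels were compared between genes as normalized counts per kilobase of exon (GENCODE vM21 exon union), as medians over 18 samples. The union joins all annotated exons of a gene and ran from 1610 bases for Nfkbia to 12061 for Nfkb1. The order of the genes therefore depends on the annotation too. Among the subunits, Rel (Entrez 19696, chr11:23736847-23770970, minus strand), which encodes the transactivating subunit c-Rel of lymphoid and myeloid cells, had by far the highest level, at 590 per kilobase (range 317 to 932). Nfkb1 (18033, chr3:135584655-135691547, minus strand), whose product is processed to the DNA-binding partner of Rel and Rela, lay at 101 per kilobase (51.8 to 170). Rela (19697, chr19:5637483-5648130, plus strand) encodes the main transactivating subunit of the canonical pathway and lay at 71.5 per kilobase (52.5 to 127). Nfkb2 (18034, chr19:46304320-46312385, plus strand) encodes the precursor of the non-canonical pathway and lay at 58.5 per kilobase (22.4 to 129). Its partner Relb (19698, chr7:19606217-19629438, minus strand) had the lowest level of the 10 members, at 45.5 per kilobase (14.4 to 108), below Nfkb2 in 17 of 18 samples.

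The inhibitors were mostly more abundant than the subunits. Tnfaip3 (21929, chr10:19000910-19015657, minus strand), which encodes the ubiquitin-editing enzyme A20, had the highest level in every one of the 18 samples, at a median of 2344 per kilobase (907 to 5336). Nfkbia (18035, chr12:55489410-55492647, minus strand), which encodes the rapidly resynthesised IkB-alpha, followed at 1425 per kilobase (694 to 2939). Nfkbiz (80859, chr16:55811375-55838899, minus strand), which encodes a nuclear IkB that modulates transcription of secondary response genes, lay at 998 per kilobase (305 to 2148). Nfkbie (18037, chr17:45555703-45563169, plus strand) encodes IkB-epsilon, a cytoplasmic inhibitor of Rel and Rela dimers, and lay at 372 per kilobase (189 to 916). Nfkbib (18036, chr7:28758251-28767512, minus strand) encodes IkB-beta, which is resynthesised slowly, and lay at 117 per kilobase (63.5 to 181), below Nfkbie in all 18 samples. On the other strand, exons of Nfkb2 overlap AC114539.1 over 531 bases (11.6% of its exons; not in the table) and Psd over 299 bases, and exons of Nfkbib overlap Ccer2 over 314 bases and Sirt2 over 42 bases. The strand of counting was not given, so reads in these bases cannot be assigned.

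**Figure D1:**
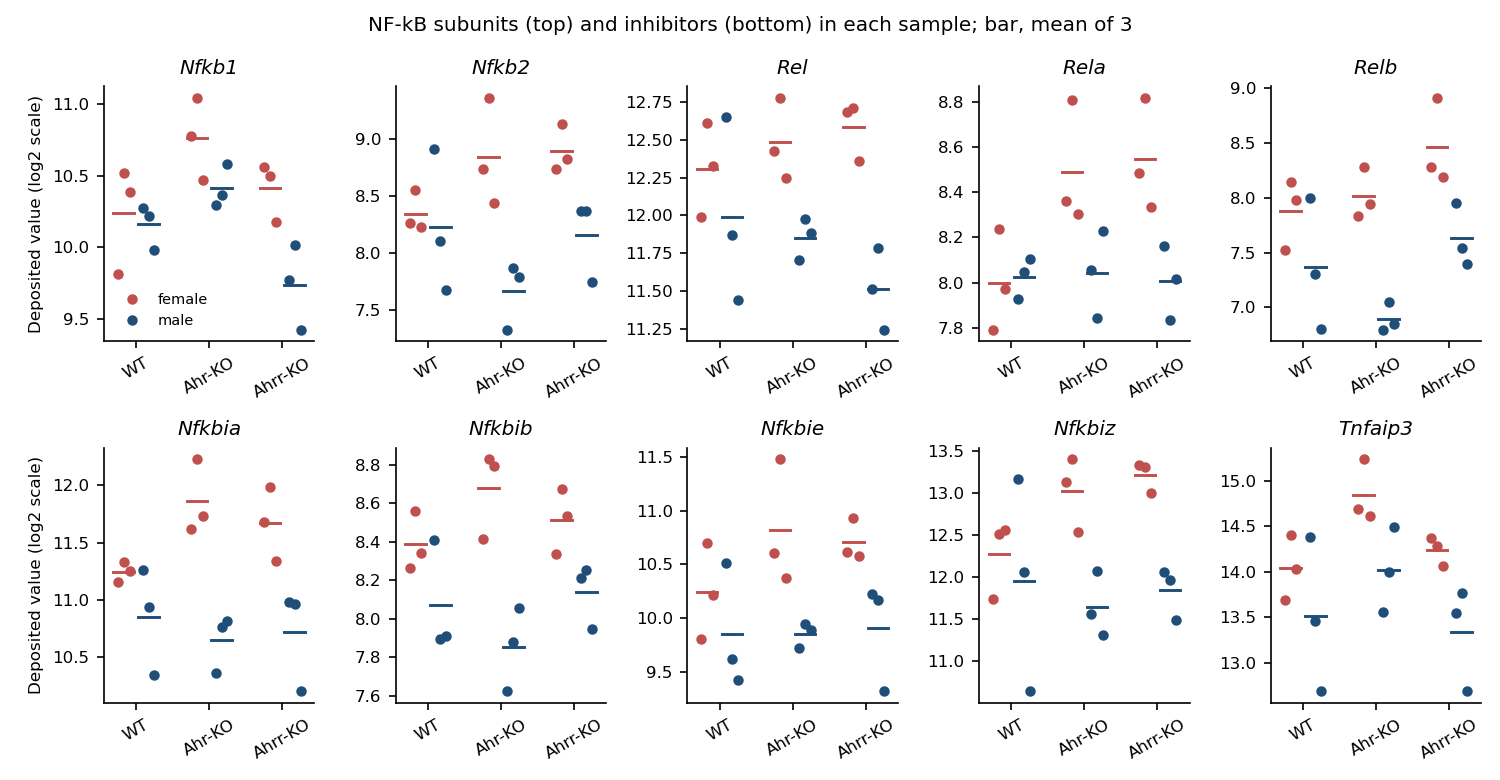
Deposited value (log2 scale) of each member in each of 18 samples, by genotype label, with females in red and males in blue; bars are means of 3. Females lie above males for most members in Ahr-KO and Ahrr-KO, whereas WT M1 lies among or above the WT females.

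The members varied together over the samples. Ahr-KO F2 was the highest sample for 8 of the 10 members and Ahrr-KO F2 for Rela and Relb. The lowest sample was Ahrr-KO M3, Ahr-KO M1 or WT M3 for 9 members, and WT F1 for Rela. All 45 pairs of members had a Pearson r above 0 over the 18 samples, from 0.33 (Nfkb1 and Relb) to 0.92 (Nfkbia and Nfkbie), with a median of 0.77. These r values describe the 18 samples and were not tested, and they include the differences between the groups.

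Between WT and the samples labelled Ahr-KO, no NF-kB subunit or inhibitor was called. The subunits were divided in direction, and the 5 inhibitors had a difference above 0, although Nfkbib fell below 0 in 7 alternative fits and Nfkbiz in 1. Tnfaip3 and Nfkb1 had the largest differences, both higher in the samples labelled Ahr-KO. Nfkb1 ran from 9.81 (F1) to 10.52 (F2) on the log2 scale in WT, with a median of 10.25, and from 10.30 (M1) to 11.04 (F2) in Ahr-KO, with a median of 10.53. The groups overlapped, and 3 of the 6 Ahr-KO samples lay above the highest WT sample. Tnfaip3 ran from 12.69 (M3) to 14.40 (F2) in WT, median 13.86, and from 13.56 (M1) to 15.24 (F2) in Ahr-KO, median 14.56. For this gene 4 of the 6 Ahr-KO samples lay above every WT sample.

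With sex as a covariate, limma on the deposited values called 0 of 10 members between WT and Ahr-KO, and 1003 of 11346 genes (8.84%; 585 higher and 418 lower in Ahr-KO). At an unadjusted p below 0.05 there were 2 members, beside 2638 of 11346 genes, and limma voom on the recovered counts called 0. The log2 difference, Ahr-KO minus WT, was 0.39 for Nfkb1 (95% interval 0.10 to 0.68, adjusted p = 0.0881) and 0.66 for Tnfaip3 (0.12 to 1.20, adjusted p = 0.126). The median difference of the 10 members was 0.21, against -0.00 for all genes, and 8 of 10 differences were above 0. This median was 0.08 without WT M3, 0.09 without WT F1, 0.08 without Ahr-KO F2 and 0.08 with sample weights. Nfkb1 was called after quantile normalization (adjusted p = 0.0451) and Tnfaip3 without WT M1 (adjusted p = 0.0177). Without WT F3 and Ahr-KO F3, 586 genes and 0 members were called. Of the immediate-early and heat shock genes described below, 3 of 14 had a difference above 0. Their median was -0.24, against -0.00 for all genes, and 1 was called, lower in Ahr-KO. Genotype goes with housing and litter here, so neither can be told from the other. The neutrophil list (98.2% Retnlg) was higher, and the fibroblast and endothelium list (92.2% Pecam1) lower, in every Ahr-KO sample.

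No member was called between WT and the samples labelled Ahrr-KO, and the intervals were wide enough to hold sizeable differences. Relb, the partner of Nfkb2, had the largest difference. It ran from 6.80 (M3) to 8.15 (F2) in WT, median 7.75, against 7.40 (M3) to 8.92 (F2) in Ahrr-KO, median 8.07. The 2 groups overlapped, with 3 of 6 Ahrr-KO samples above the highest WT sample. Between WT and Ahrr-KO limma called 0 of 10 members and 9 of 11546 genes (0.0779%). At an unadjusted p below 0.05 there were 0 members, beside 853 of 11546 genes, and limma voom called 0. The difference of Relb was 0.42 (95% interval -0.03 to 0.87, adjusted p = 0.671), and that of Nfkbiz 0.41 (-0.34 to 1.17, adjusted p = 0.74). The median difference was 0.19 and 8 of 10 were above 0. It was 0.11 without WT M3 or Ahrr-KO F2, 0.12 without WT F1 and 0.12 with sample weights, and 0.29 without Ahrr-KO M3. Without WT M1 it was 0.27, and 4 members had an unadjusted p below 0.05. No count over all genes at this threshold is given for that fit, so the 4 members cannot be set against a background. Without Ahrr-KO F3, M1 and M3, the 3 libraries high in epithelial transcripts, 4 genes and 0 members were called, and the median difference was 0.37. Of the immediate-early and heat shock genes described below, 14 of 14 had a difference above 0. Their median was 0.29, against 0.01 for all genes, and 0 were called.

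Between the samples labelled Ahr-KO and Ahrr-KO, 2 of 10 members were called, beside 14.9% of all genes, a share too close to speak of the members as a group. They were Nfkb1, of the canonical pathway, which was lower in Ahrr-KO, and Relb, of the non-canonical pathway, which was higher. Nfkb1 ran from 9.43 (M3) to 10.56 (F1) in Ahrr-KO, median 10.10, against 10.30 to 11.04 in Ahr-KO. The groups overlapped, with 4 of 6 Ahrr-KO samples below the lowest Ahr-KO sample. Relb ran from 6.80 (M1) to 8.28 (F2) in Ahr-KO, median 7.44, against 7.40 to 8.92 in Ahrr-KO. Here the 3 Ahr-KO males were the lowest samples and 2 of 6 Ahrr-KO samples lay above the highest Ahr-KO sample.

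Of 11474 genes tested, limma called 1708 between these genotypes (923 higher and 785 lower in Ahrr-KO), and 626 without Ahrr-KO F3, M1 and M3, the libraries high in epithelial transcripts. The neutrophil list (98.2% Retnlg) was higher in every Ahr-KO sample (54966.1 to 113283.1, against 44972.0 at most). The fibroblast and endothelium list (92.2% Pecam1) was lower in every Ahr-KO sample (2356.5 at most, against 2472.4 at least). The B and plasma cell list was high in 4 Ahrr-KO samples. Nfkb1 fell by 0.51 (95% interval -0.82 to -0.21, adjusted p = 0.0293). Relb rose by 0.59 (0.26 to 0.92, adjusted p = 0.022). Immediate-early and heat shock genes, described below, were also higher in Ahrr-KO for 13 of 14 genes (median difference 0.53, against -0.00 for all genes), with 1 called. Tnfaip3 was lower in Ahrr-KO but not called (-0.64, -1.12 to -0.16, adjusted p = 0.066), although it was called by voom (adjusted p = 0.0468), without the limma trend (adjusted p = 0.0427) and without Ahrr-KO M2 (adjusted p = 0.0491). Both calls were lost without the sex covariate (Nfkb1 adjusted p = 0.103, Relb adjusted p = 0.198) and without Ahr-KO F1, M1 or M3. The Nfkb1 call was also lost without Ahr-KO F2, Ahr-KO M2, Ahrr-KO F3 or Ahrr-KO M3, and without Ahrr-KO F3, M1 and M3 together its difference was -0.30 (adjusted p = 0.253). The Relb call was also lost with each sample centred on its median (adjusted p = 0.0527). All 3 genotype comparisons share their samples, the 2 with WT the same 6 controls, so they are not independent and their overlap was not counted.

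**Figure D2:**
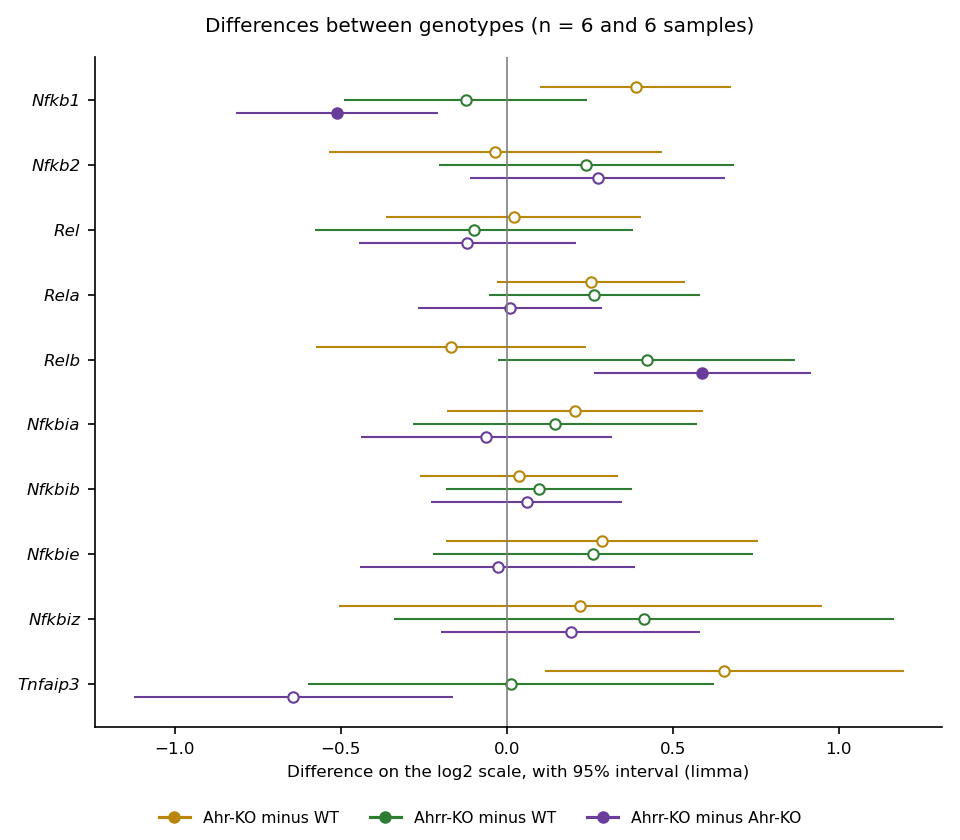
Log2 difference of each member between genotypes (points) with its 95% interval from limma (lines); filled points have an adjusted p below 0.05. Only Nfkb1 (-0.51) and Relb (0.59) in Ahrr-KO minus Ahr-KO are filled.

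The figure shows most intervals of the 10 members crossing 0 in all 3 comparisons. In the 2 comparisons with WT, the intervals of Nfkbiz and Tnfaip3 are the widest.

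Around the members, single pathway genes differed clearly by genotype. Of 74 genes on lists of receptors and adaptors, kinases, other inhibitors and known NF-kB targets, 71 were tested, and 8 were higher and 4 lower in Ahr-KO than in WT (9 and 6 by voom). These 12 of 71 stand beside 8.84% of all genes, and beside the higher neutrophil list (98.2% Retnlg) of every Ahr-KO sample. The number higher was 13 without WT M1 and after quantile normalization, and 5 without Ahr-KO F2 or Ahr-KO M3. Cxcl3, a neutrophil-attracting chemokine, ran from 12.25 to 13.33 on the log2 scale in WT, median 12.74, and from 9.41 to 10.66 in Ahr-KO, median 10.12. The groups did not overlap, and Cxcl3 fell by 2.70 (limma adjusted p = 1.91e-06). Il1b, the most abundant known target (mean 44040.2 normalized counts), ran from 14.11 to 15.33 in WT, median 14.93, and from 15.60 to 16.76 in Ahr-KO, median 15.97. All 6 Ahr-KO samples lay above every WT sample, and Il1b rose by 1.27 (adjusted p = 0.00432).

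Other targets that rose in Ahr-KO were Il6 (1.46, adjusted p = 0.0334), Bcl2a1a (1.15, adjusted p = 7.66e-05) and Bcl2a1b (1.04, adjusted p = 0.00419). Irak2, a kinase-like adaptor below toll-like receptors, ran from 9.82 to 10.57 in WT and from 8.97 to 9.67 in Ahr-KO. Without overlap between the groups, it fell by 0.95 (adjusted p = 2.35e-05). Traf5 fell by 0.56 (adjusted p = 0.00394), and the deubiquitinase gene Otud7b rose by 0.30 (adjusted p = 0.0371). In the samples labelled Ahrr-KO, the only pathway gene called against WT was Tlr2, which rose by 0.85 (adjusted p = 0.0464) from a median of 5.98 to 6.81, with overlapping groups. Voom called 0, as did the fits without Ahrr-KO F3, M1 and M3, without a minimum mean, with median centring and with quantile normalization. A minimum mean of 3, the replicate block, log2(count + 1) and no sex covariate also gave 0. Sample weights and 1 fit of all 18 samples gave 2 pathway genes each. Of the 12 fits without 1 library, only those without WT F3 or Ahrr-KO M1 called 1. The macrophage list was higher in 5 of 6 Ahrr-KO samples than in any WT sample.

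Between the samples labelled Ahr-KO and Ahrr-KO, 5 pathway genes were higher and 7 lower in Ahrr-KO (5 and 9 by voom), 12 of 71 beside 14.9% of all genes. A minimum mean of 3 gave 2 and 5, and no sex covariate 4 and 4. Sample weights gave 7 and 11, the replicate block 7 and 8, and the fit without Ahrr-KO F1 8 and 8. Cxcl3 (3.01, adjusted p = 1.35e-06), Nlrp3 (1.11, adjusted p = 0.000427), Irak2 (0.87, adjusted p = 0.00176), Bcl3 (0.67, adjusted p = 0.00459) and Tlr4 (0.48, adjusted p = 0.0261) rose. Il6 (-1.34, adjusted p = 0.024), Il1b (-1.30, adjusted p = 0.00285) and Bcl2a1b (-1.11, adjusted p = 0.00188) fell. For Cxcl3 all 6 Ahrr-KO samples (12.18 to 14.03) lay above every Ahr-KO sample.

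More members were called by sex, in a fit of 9 against 9 samples, than by genotype. Most subunits and inhibitors were lower in males, and among them were inhibitors that NF-kB itself induces. No processing day or batch was given, so sex and an unlabelled day cannot be told apart. In the fit of all 18 samples with genotype as a covariate, 7 of the 10 members were called, all lower in males, against 282 of 11468 genes called lower in males (2.46%) and 69 called higher. The mast cell list was also lower in males, with a median of 77.3 normalized counts against 179.1 in females. The macrophage list (552.2 against 271.8) and the B and plasma cell list (740.4 against 348.4) had higher medians in males. The sexes overlapped for all 3 lists. The median difference of the 10 members, male minus female, was -0.70 on the log2 scale, against 0.01 for all genes. Voom called 5 of 10 members, with 197 genes higher and 194 lower in males and a median of 0.17 over all genes, and median centring left 129 genes and 2 members called.

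Of the subunits, Rel, Relb and Nfkb2 fell in males. Rel ran from 11.99 to 12.78 in the 9 females, median 12.42, and from 11.25 to 12.65 in the 9 males, median 11.78. Of the males 8 lay below the lowest female and only WT M1 lay among the females. Rel fell by 0.67 (95% interval -1.004 to -0.341, adjusted p = 0.0253). Relb ran from 7.52 (WT F1) to 8.92 in females, median 8.15, and from 6.80 (Ahr-KO M1) to 7.996 (WT M1) in males, median 7.30. The sexes overlapped, with 6 of 9 males below the lowest female. Relb fell by 0.82 (-1.15 to -0.50, adjusted p = 0.00858). Nfkb2 ran from 8.22 to 9.36 in females, median 8.73, and from 7.33 to 8.91 (WT M1) in males, median 7.87. Here 6 of 9 males lay below every female. Nfkb2 fell by 0.68 (-1.06 to -0.29, adjusted p = 0.0484). The canonical subunits Nfkb1 (-0.37, -0.63 to -0.11, adjusted p = 0.114) and Rela (-0.32, -0.56 to -0.08, adjusted p = 0.128) were not called, with 2 and 0 males below the lowest female.

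Among the inhibitors, Nfkbia and Nfkbib separated the sexes best. Nfkbia ran from 11.16 (WT F1) to 12.23 in females, median 11.62, and from 10.21 (Ahrr-KO M3) to 11.26 (WT M1) in males, median 10.81. Only WT M1 lay among the females, and 8 of 9 males lay below all of them. Nfkbia fell by 0.85 (-1.19 to -0.52, adjusted p = 0.00798). Nfkbib ran from 8.26 to 8.83 in females, median 8.53, and from 7.62 to 8.41 in males, median 7.95. Again only WT M1 lay among the females. Nfkbib fell by 0.51 (-0.74 to -0.27, adjusted p = 0.0182).

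Nfkbiz ran from 11.74 to 13.40 in females, median 13.00, and from 10.64 (WT M3) to 13.17 (WT M1) in males, median 11.97. The sexes overlapped, with 4 of 9 males below the lowest female. Nfkbiz fell by 1.02 (-1.57 to -0.47, adjusted p = 0.0391), the largest difference of the 10. Nfkbie ran from 9.81 to 11.48 in females, median 10.61, and from 9.32 to 10.52 (WT M1) in males, median 9.89. For it too 4 of 9 males lay below every female. Nfkbie fell by 0.72 (-1.10 to -0.34, adjusted p = 0.0368). Tnfaip3 was not called (-0.75, -1.20 to -0.31, adjusted p = 0.0589), with 5 of 9 males below the lowest female.

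**Figure D3:**
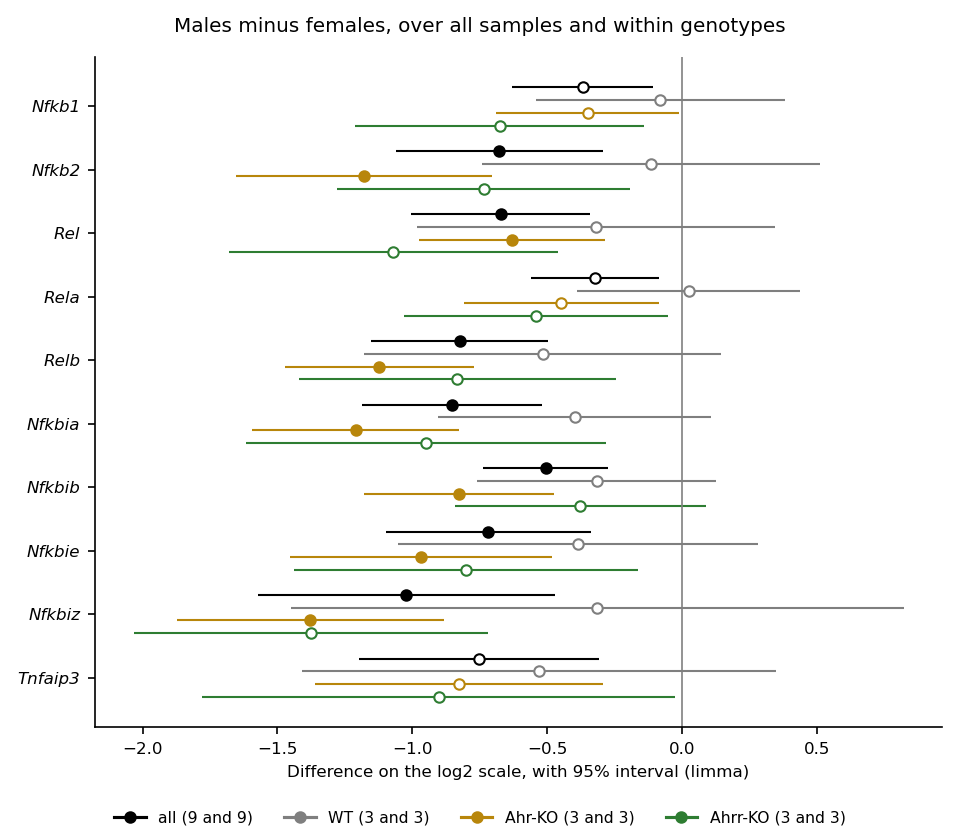
Log2 difference of each member, male minus female, in all 18 samples (black) and within each genotype, with 95% intervals from limma; filled points have an adjusted p below 0.05. All 10 differences lie below 0 in the fit of all samples, and the WT points lie nearest 0.

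The 7 calls differed in how far they depended on single libraries. Relb and Nfkbia stayed called in every alternative fit that tested them (a minimum mean of 3 left Relb out), and Nfkbib in all but the one with each sample centred on its median. Rel, Nfkb2, Nfkbie and Nfkbiz were lost with that centring and without a minimum mean, Nfkb2 and Nfkbiz also by voom and Nfkb2 without the limma trend. Their differences stayed about as large. With centring they were -0.66 for Rel, -0.66 for Nfkb2, -0.71 for Nfkbie and -1.01 for Nfkbiz, and without a minimum mean they were unchanged. Rel was also lost without WT F2, WT M3, Ahr-KO F2, Ahr-KO M1, Ahrr-KO F1, Ahrr-KO F2 or Ahrr-KO M3. Among the fits without 1 library, Nfkbie stayed called only without WT F1, WT F3, WT M1, Ahr-KO F3, Ahrr-KO F3, Ahrr-KO M1 or Ahrr-KO M2. Nfkbiz stayed called only without WT F1, WT M1, WT M2, Ahr-KO F3, Ahrr-KO F3 or Ahrr-KO M1, and Nfkb2 only without WT F1, WT F3, WT M1 or Ahrr-KO F3. The 3 members not called, Nfkb1, Rela and Tnfaip3, were called without WT F1, and Tnfaip3 also without WT M1. With sample weights all 3 were called too (limma adjusted p = 0.0191, 0.0196 and 0.0135). Tnfaip3 was also called with a minimum mean of 3 (limma adjusted p = 0.0425) and without the limma trend (adjusted p = 0.0455). Without both WT F3 and Ahr-KO F3, 5 members were called, beside 254 of 11425 genes. Without Ahrr-KO F3, M1 and M3 the 3 members Relb, Nfkbia and Nfkbib were called, beside 371 of 11356 genes.

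Sex was also fitted within each genotype, which was decided after the data had been seen. In Ahr-KO, 7 of 10 members were called lower in males, against 344 of 11265 genes (3.05%), and voom called 5. The member count was 3 without Ahr-KO M1, 4 without F2 or M2, 5 without F1, 8 without M3 and 9 without F3. Over all genes limma called 113 higher and 344 lower in males, whereas voom called 393 higher and 168 lower, with a median over all genes of 0.24. Relb ran from 7.83 to 8.28 in the 3 females and from 6.80 to 7.05 in the 3 males. The sexes did not overlap, and Relb fell by 1.12 (adjusted p = 0.00408 by limma). Nfkbia ran from 11.62 to 12.23 in Ahr-KO females and from 10.36 to 10.81 in males, again without overlap. Nfkbia fell by 1.21 (adjusted p = 0.00418 by limma). Nfkbiz fell by 1.38 (adjusted p = 0.00659), Nfkb2 by 1.18 (adjusted p = 0.0111), Nfkbie by 0.97 (adjusted p = 0.0328), Nfkbib by 0.83 (adjusted p = 0.0148) and Rel by 0.63 (adjusted p = 0.0453) by limma, and for each of them all 3 males lay below all 3 females. Other lists separated the sexes in Ahr-KO too. The eosinophil list was lower in every male, and so was the mast cell list (62.1 to 77.3 in males, 135.7 to 538.0 in females). The fibroblast and endothelium list, 92.2% of it Pecam1, was also lower in every male (1884.5 to 2085.1, against 2162.3 to 2356.5). The macrophage list was higher in every male (387.3 to 650.1, against 63.2 to 311.0 in females). Of 14 immediate-early and heat shock genes, 7 were called lower in Ahr-KO males (3.05% of all genes), with a median difference of -0.81.

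In the samples labelled Ahrr-KO, limma called 0 of 10 members between the sexes and 5 of 11669 genes (0.0428%). At an unadjusted p below 0.05 there were 9 members, beside 1054 of 11669 genes, and voom called 0. This number was 3 without Ahrr-KO M3 (median difference -0.56), 4 without F2 (-0.66) and 6 without F1. With all 6 samples the median difference was -0.82, and Nfkbiz had the largest (-1.38, adjusted p = 0.392 by limma). The epithelium list ran from 25008.6 to 57419.5 normalized counts in Ahrr-KO males and from 9746.0 to 35612.6 in females. The eosinophil list had a median of 45037.6 in Ahrr-KO males and 57505.9 in females, with overlap. Without Ahrr-KO F3, 2 members and 643 genes were called. Within WT limma called 0 of 10 members and 5 of 11409 genes (0.0438%). At an unadjusted p below 0.05 there were 0 members, beside 405 of 11409 genes, voom called 0, and the median difference was -0.32. WT M1 lay above at least 1 WT female for all 10 members, and without it the median difference was -0.63 and 7 members had an unadjusted p below 0.05. For fits within a genotype without 1 library, no count over all genes at this threshold is given. Without WT M3 the median was -0.08 and without WT F2 -0.18, each with 0 members at an unadjusted p below 0.05.

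Every male lay below every female for 0 of 10 members in WT (4.04% of genes), for 9 of 10 in Ahr-KO (12.4% of genes; all but Nfkb1) and for 10 of 10 in Ahrr-KO (7.58% of genes). With 3 against 3 samples such a separation is common, and the members vary together, so they are not 10 independent counts. Whether the sex difference itself differed between WT and Ahr-KO was tested by an interaction, for which limma called 0 of 10 members and 0 of 11346 genes (0%). At an unadjusted p below 0.05 there were 2 members, beside 533 of 11346 genes, and voom called 0. The 2 members were Nfkb2 (-1.06, -1.92 to -0.21) and Nfkbia (-0.81, -1.48 to -0.15), each with a limma adjusted p of 0.954. The difference between WT and Ahr-KO in the effect of sex was therefore not established, although all 10 interaction values were negative (median -0.54, against -0.01 for all genes). This median was -0.32 without WT M1, and 0 members had an unadjusted p below 0.05 without WT M1, Ahr-KO F2 or Ahr-KO M1. There were 5 such members without WT M3 or with median centring (median -0.75 in each), and 4 without WT F2, without Ahr-KO M3 or with sample weights. For these other fits no count over all genes at this threshold is given. Of the immediate-early and heat shock genes described below, 2 of 14 had an interaction value above 0 (median -0.55), and 4 had an unadjusted p below 0.05 by limma. The same interaction was not tested for Ahrr-KO.

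The lower values in males extended to genes that NF-kB induces. In the fit of all 18 samples, 18 of 71 pathway genes were called lower in males and 0 higher (15 and 0 by voom), beside 2.46% of all genes called lower, with a median difference of -0.31. The count was 10 with median centring, 11 without a minimum mean, 30 with sample weights and 12 without both WT F3 and Ahr-KO F3. It was 28 without WT F1 and 11 without WT F2, WT M3, Ahr-KO F2, Ahr-KO M1 or Ahr-KO M2, and 12 to 22 without any other single library. They were 12 of 28 known targets, 4 of 11 other inhibitors, 2 of 21 receptors and adaptors and 0 of 11 kinases. For the kinases 2 of 11 genes had an unadjusted limma p below 0.05, beside 2145 of 11468 genes. Gadd45b, an inducible survival gene, ran from 8.31 (WT F1) to 10.65 in females, median 9.84, and from 7.76 to 8.79 in males, median 8.39. Gadd45b fell by 1.42 (-1.91 to -0.92, limma adjusted p = 0.00484), and the sexes overlapped because of WT F1. Bcl3, which encodes a nuclear IkB protein, ran from 7.72 (Ahr-KO F3) to 8.66 in females, median 8.29, and from 7.01 to 8.09 in males, median 7.64. Within each genotype every male lay below every female for Bcl3, which fell by 0.69 (-0.90 to -0.49, adjusted p = 0.00107).

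Further called targets were Il6 (-1.31, adjusted p = 0.0382), the chemokine genes Ccl3 (-1.02, adjusted p = 0.00978) and Ccl4 (-0.97, adjusted p = 0.0104) and the adhesion gene Icam1 (-0.96, adjusted p = 0.00798). Of the other inhibitors, Nfkbid (-0.82, adjusted p = 0.0176), Irak3 (-0.74, adjusted p = 0.0168) and Zc3h12a (-0.56, adjusted p = 0.0446) also fell. The 2 receptor and adaptor genes were Tnfrsf1b (-0.91, adjusted p = 0.0176), which encodes a TNF receptor, and Irak2 (-0.49, adjusted p = 0.0278). The most abundant genes of the lists, Birc2, Ikbkb, Tax1bp1 and Il1b, were not called between the sexes. Within Ahr-KO 18 of 71 pathway genes were called lower in males, beside 3.05% of all genes (12 lower and 1 higher by voom). This count was 5 without Ahr-KO M1, 6 without F2, 7 without M2, 11 without F1, 21 without M3 and 23 without F3. Within WT and Ahrr-KO 0 were called, with 3 and 26 at an unadjusted p below 0.05 and 0 by voom in each. At that threshold there were 405 of 11409 genes in WT and 1054 of 11669 in Ahrr-KO. Without Ahrr-KO F3, 6 pathway genes were called lower in Ahrr-KO males, beside 172 of 11615 genes.

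**Figure D4:**
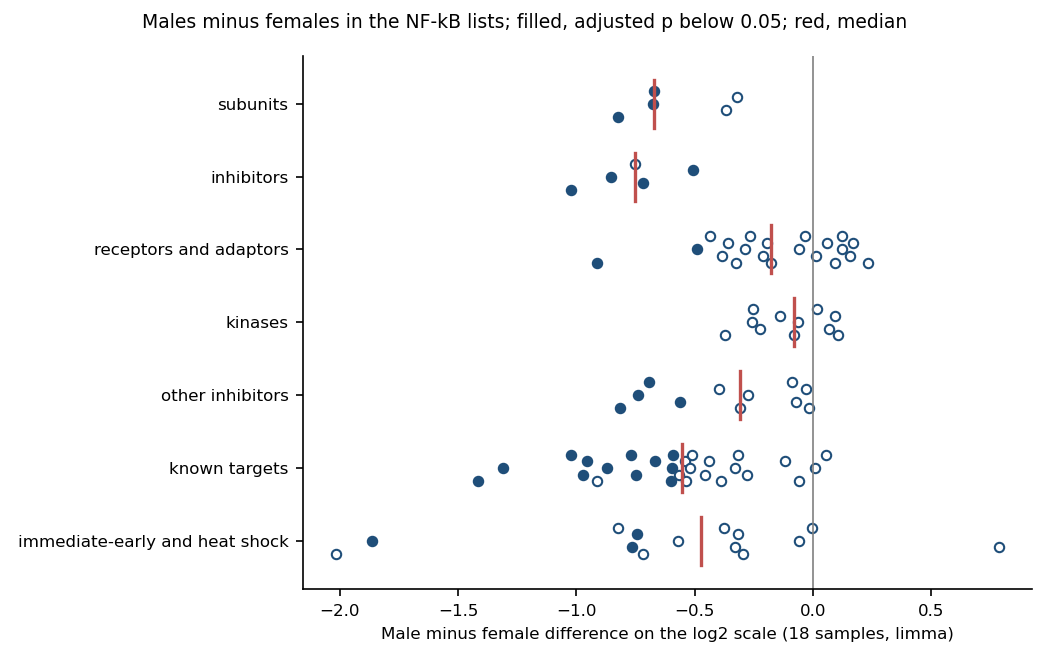
Log2 difference, male minus female, of each gene by list in the fit of all 18 samples; filled points have an adjusted p below 0.05 and red lines are medians. The median is -0.55 for known targets and -0.08 for kinases.

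Immediate-early and heat shock genes respond within minutes and also to tissue handling, and some of them were lower in males. Of 14 such genes limma called 3 lower in males (2.46% of all genes), Hspa1b (-1.87, adjusted p = 0.0491), Jun (-0.77, adjusted p = 0.0166) and Atf3 (-0.75, adjusted p = 0.00294), with a median of -0.47 for the list. Egr1 was not called and had a difference above 0 (0.79, adjusted p = 0.315), and Egr2 (-0.06) and Ier2 lay near 0. The mean of the list ran from 9.81 to 11.63 (Ahrr-KO F2) in females, median 10.40, and from 9.28 (Ahr-KO M1) to 10.44 in males, median 9.92. The sexes overlapped. Atf3 also differed by genotype, falling in Ahr-KO against WT (-1.42, adjusted p = 3.4e-06) and rising in Ahrr-KO against Ahr-KO (1.88, adjusted p = 1.24e-06).

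The list mean was correlated with each of the 10 members, 10 relations in all, by permutation over the 18 samples. Samples were permuted across genotype and sex, so r and p over the 18 samples include the differences between these groups. Pearson r was above 0 for 10 of 10 (median 0.47) and 4 relations had an adjusted p below 0.05. Relb had the highest (r = 0.70, permutation adjusted p = 0.00955; Spearman rho = 0.63, adjusted p = 0.0317), followed by Nfkbib (r = 0.67, adjusted p = 0.00955; rho = 0.63, adjusted p = 0.0317). Nfkb2 (r = 0.60, adjusted p = 0.0247; rho = 0.55, adjusted p = 0.0465) and Nfkbia (r = 0.58, adjusted p = 0.0253; rho = 0.59, adjusted p = 0.0375) were the others. Without the 2 samples farthest from the median, Ahrr-KO F2 and Ahr-KO M1, 0 relations had an adjusted p below 0.05 and the median r was 0.24. Within Ahr-KO (median r 0.73) and Ahrr-KO (0.75) 10 of 10 relations were above 0, and within WT 1 of 10 (median -0.20), with 0 below an adjusted p of 0.05 in each by exact permutation of 6 samples. Sex and the list were not fitted together, so the part of each was not tested.

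**Figure D5:**
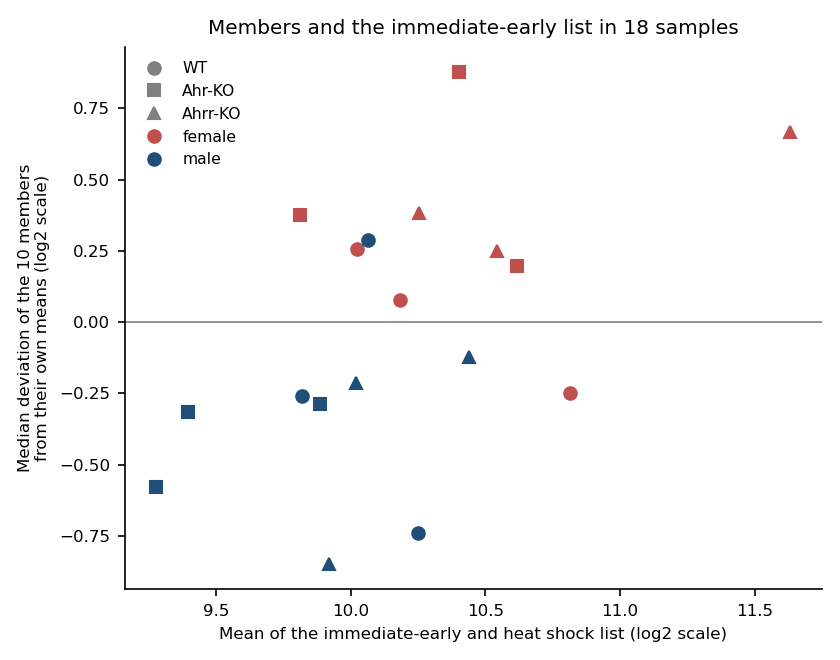
Mean of the immediate-early and heat shock list (x axis, log2 scale) against the median deviation of the 10 members from their means (y axis, log2), 1 point per sample, with shapes for genotype and colours for sex. Ahrr-KO F2 lies at 11.63 and 0.67, and WT M1 at the top of the males with 0.29.

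Genes outside the members that followed them most closely were sought among 11468 genes over the 18 samples. Nfkbiz went with Dnajb2 (r = 0.97), Ifrd1 (0.96) and Acod1 (0.95), Nfkbia with Ankrd33b (0.95), Tgm2 (0.95) and Mapkapk2 (0.94), and Nfkbie with Tnfrsf1b (0.94). Of the subunits, Rel went with Ankrd33b (0.96) and Pik3ap1 (0.96), Nfkb1 with Dennd3 (0.95), Wbp1l (0.95) and Chd7 (0.94), and Relb with Hilpda (0.95), Litaf (0.94) and Atp6v0d1 (0.93). Rela had the weakest partner, Sgsm2 (0.84). Nfkb2 and Nfkbib shared Dot1l, with Nr4a3 highest for Nfkbib (0.92), and Tnfaip3 went with Tapt1 (0.93) and the immediate-early gene Nr4a1. These r values are the highest of many and were not tested.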

How the data were processed

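RNA of sorted intestinal eosinophils was sequenced in 18 samples. According to the submitters' processing notes, reads were aligned with STAR 2.5.2, quantified with RSEM 1.3.0 and processed with DESeq2 in R 4.0.3. The deposited values are variance-stabilised counts on a log2 scale, and 100.0% could be turned back into whole counts (tolerance 0.001, largest deviation 3.6e-08). The deposited values were fitted with limma trend 3.58.1 (R 4.3.3), with sex (or genotype) as a covariate, and p was adjusted by Benjamini-Hochberg over all genes with a mean at least 1 above the lowest value of the table. A call is an adjusted p below 0.05, and every adjusted p of a difference is limma's. Levels between genes are normalized counts per kilobase of GENCODE vM21 exons. Total counts per sample ran from 3842977 to 12046933. Correlations were tested by permutation (100000 resamples; all 720 orders within 6 samples, smallest p 0.00278). Tables were made in Python 3.11.15 with pandas 2.3.3, permutations with numpy 2.4.6, ranks with scipy 1.17.1 and plots with matplotlib 3.10.9. The recovery of counts was checked on the deposited values, by the deviation from whole counts given above.

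Alternatives changed the minimum mean, scaling, trend, weights, covariate, replicate block and count model, and left out each sample. Fits within each genotype by sex, and those without WT F3 and Ahr-KO F3 or without Ahrr-KO F3, M1 and M3, were chosen after seeing the data. The members and lists were chosen with earlier results of these data known. Named genes are all 10 members, the called genes of each pathway list with the largest differences (up to 5 a list and comparison) and its most abundant gene, the most abundant marker of each list and those near 0, and genes from the 3 most correlated with each member, not all of which are reported here.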

Additional observations from a re-analysis of the deposited data

How the results depend on the processing

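The values below follow the setting that was changed, with the first value of each count in brackets. Genes called between WT and Ahr-KO (1003) numbered 553 in 1 fit of all 18 samples, 586 without WT F3 and Ahr-KO F3, and 623 to 1124 with 1 replicate left out; 1 member was called after quantile normalization and 1 without WT M1. Between WT and Ahrr-KO (9 genes) there were 4 without a minimum mean, with the replicate block, with log2(count + 1), with voom and without Ahrr-KO F3, M1 and M3, 5 with a minimum mean of 3, with median centring and after quantile normalization, 18 with sample weights, 14 in 1 fit of all samples and 4 to 25 with 1 replicate left out. Between Ahr-KO and Ahrr-KO (1708 genes, 2 members) there were 828 genes and 1 member with a minimum mean of 3, 994 and 0 without the sex covariate, 626 and 1 without Ahrr-KO F3, M1 and M3, 1 member with median centring, and 818 to 2574 genes and 0 to 3 members with 1 replicate left out. Scaling also shifted the split between up and down, from 923 and 785 to 790 and 1036 with median centring and to 811 and 1045 after quantile normalization.

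Between the sexes (351 genes, 7 members) there were 163 genes and 3 members without a minimum mean, and 129 and 2 with median centring. There were 1310 genes and 10 members with sample weights, and 371 and 3 without Ahrr-KO F3, M1 and M3. With 1 replicate left out there were 142 to 733 genes and 3 to 10 members. Voom split the called genes into 197 up and 194 down in males, against 69 and 282, and its median over all genes was 0.17. With 1 replicate left out, the sexes gave 5 to 13 genes in WT (5), 109 to 916 genes and 3 to 9 members in Ahr-KO (457 and 7), and 5 to 643 genes and 0 to 2 members in Ahrr-KO (5 and 0). The interaction called 0 genes in every setting, and median centring moved its median over all genes from -0.01 to -0.21. Relations of members to the immediate-early list (4) numbered 0 without the 2 farthest samples and 0 within WT, within Ahr-KO and within Ahrr-KO. On the forward strand alone the AHR core was found in 20.03% of promoters and the kappaB consensus in 2.77%.

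No member called between genotypes or between the sexes over all 18 samples changed sign; within-genotype calls and other genes were not followed one by one. Between WT and Ahr-KO the sign changed for Nfkb2 (0.024 with median centring, -0.21 to 0.18 with 1 replicate left out), Rel (-0.028 after quantile normalization, -0.037 with sample weights, -0.036 with voom, -0.083 to 0.19 with 1 replicate left out), Relb (-0.28 to 0.0054 with 1 left out), Nfkbib (-0.045 with sample weights, -0.0018 with voom, -0.046 without WT F3 and Ahr-KO F3, -0.025 to 0.14 with 1 left out) and Nfkbiz (-0.012 to 0.55 with 1 left out). Between WT and Ahrr-KO it changed for Nfkb1 (0.12) and Rel (0.16) without Ahrr-KO F3, M1 and M3, for Rel with 1 left out (-0.21 to 0.090) and for Tnfaip3 (-0.026 with median centring, -0.018 with voom, -0.0092 without WT F3 and Ahr-KO F3, -0.15 to 0.23 with 1 left out). Between Ahr-KO and Ahrr-KO it changed without Ahrr-KO F3, M1 and M3 for Rel (0.10), Nfkbia (0.10) and Nfkbie (0.093), after quantile normalization for Rela (-0.052), Nfkbia (0.024) and Nfkbie (0.011), with sample weights for Rela (-0.0071), Nfkbia (0.036) and Nfkbie (0.027), and with median centring for Rela (-0.087) and Nfkbib (-0.037). With 1 left out the values ran from -0.056 to 0.074 for Rela, -0.14 to 0.038 for Nfkbia, -0.016 to 0.12 for Nfkbib and -0.12 to 0.13 for Nfkbie, and Rela was -0.037 without WT F3 and Ahr-KO F3.

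Each genotype and sex held 3 samples, no batch was given, and genotype went with housing for WT and Ahr-KO. Samples with the same number were not stated to be paired. With the number as a block, 918 genes and 0 members were called between WT and Ahr-KO, 4 and 0 between WT and Ahrr-KO, and 1946 and 2 between the knockouts. Transcripts do not show NF-kB activity, which depends on protein location. The cause of the sex difference was not tested.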
